A study of Mus musculus with 8 samples.

Results

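Accessible chromatin of mouse embryonic stem cells that had lost Ubc9 was compared with that of cells without 3 subtypes of linker histone (H1.2, H1.3, H1.4). The comparison rests on the 48730 accessible regions listed for Ubc9-depleted cells and the 58039 listed for H1 triple-knockout cells, 106769 of the 209105 regions in the 4 deposited lists. A region was called shared when it overlapped a region of the other perturbed list by at least 1 bp, and unshared otherwise. The assay was ATAC-seq, which reads out DNA not covered by nucleosomes or bound proteins through a transposase that cuts there and attaches adapters.

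The study held 8 samples in 4 groups of 2 replicates. The Ubc9-depleted cells were of the v6.5 line and carried a TET-OFF system in which doxycycline, given for 72 hours, removes Ubc9. Their isogenic control is labelled Ubc9-control, and doxycycline is stated for the depletion only, so the drug and the loss of Ubc9 cannot be told apart. The H1 triple-knockout cells had the genotype H1.2-/-H1.3-/-H1.4-/- and, like their H1-WT counterpart, came from a line described in an earlier publication. All cells had been kept for 4 passages in 2i/LIF medium, each reaction took 50000 cells, and libraries went through 12 PCR cycles. The perturbed groups come from different lines, so line and perturbation cannot be told apart. The same comparison between the Ubc9 control and H1 wild-type lists (the control comparison, with Ubc9 control given before H1 wild-type) is therefore given with the main counts and shares. Each list pools both replicates of its group, and with no replicate spread to set a difference against, no p-value is given. The 95% intervals are exact (Clopper-Pearson) and cover counting error only, and the sequencing depth is unknown. Widths and totals of regions were not compared between the perturbed lists, because the lists were built differently.

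Ubc9 is the E2 enzyme that attaches the small protein SUMO to its targets, many of which are transcription factors and chromatin proteins. In embryonic stem cells SUMO is known to help keep retroviruses and genes of the 2-cell embryo silent. Linker histone H1 binds DNA where it enters and leaves the nucleosome and helps chromatin to compact. Both are thus known as restraints on open chromatin, by different routes.

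The promoters that set the lists apart differed in base composition, and a few of them are shown here for that reason. Each sequence is the 150 bases before a start site, 5′ to 3′ on the gene's strand, from RefSeq for GRCm38.p6 (the coordinates of mm10), with every CpG in capitals. The first 3 belong to genes of the 2-cell embryo with a region in the Ubc9-depleted list and in no other list.
Zscan4f, chr7:11397765-11397914, plus strand: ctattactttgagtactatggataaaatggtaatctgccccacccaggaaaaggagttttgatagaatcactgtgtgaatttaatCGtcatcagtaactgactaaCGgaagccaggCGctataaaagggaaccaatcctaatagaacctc
Zscan4b, chr7:10905051-10905200, minus strand: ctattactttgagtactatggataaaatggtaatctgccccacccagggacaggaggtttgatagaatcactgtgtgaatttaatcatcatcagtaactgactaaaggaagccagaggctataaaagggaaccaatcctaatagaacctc
Zfp352, chr4:90218670-90218819, plus strand: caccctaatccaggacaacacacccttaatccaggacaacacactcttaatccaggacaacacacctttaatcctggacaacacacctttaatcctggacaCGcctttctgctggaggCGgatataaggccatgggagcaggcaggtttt
The next 3 belong to a developmental regulator, a secreted signal and a DNA methyltransferase with a region in the Ubc9-depleted and not in the H1 triple-knockout list.
Hoxa13, chr6:52260881-52261030, minus strand: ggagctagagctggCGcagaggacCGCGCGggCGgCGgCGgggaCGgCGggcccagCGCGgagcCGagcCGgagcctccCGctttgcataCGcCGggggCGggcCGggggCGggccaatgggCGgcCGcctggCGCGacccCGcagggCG
Wnt9a, chr11:59306780-59306929, plus strand: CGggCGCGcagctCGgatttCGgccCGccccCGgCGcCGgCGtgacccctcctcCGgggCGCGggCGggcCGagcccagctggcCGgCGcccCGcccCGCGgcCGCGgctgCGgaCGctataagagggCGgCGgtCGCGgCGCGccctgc
Dnmt3b, chr2:153649299-153649448, plus strand: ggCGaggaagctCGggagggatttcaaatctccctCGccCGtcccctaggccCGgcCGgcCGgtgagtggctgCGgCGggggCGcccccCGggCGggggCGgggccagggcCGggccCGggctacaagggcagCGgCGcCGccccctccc
The last 3 belong to an interferon-response gene, a secreted signal and a thiamine transporter with a region in the H1 triple-knockout and not in the Ubc9-depleted list.
Xaf1, chr11:72301479-72301628, plus strand: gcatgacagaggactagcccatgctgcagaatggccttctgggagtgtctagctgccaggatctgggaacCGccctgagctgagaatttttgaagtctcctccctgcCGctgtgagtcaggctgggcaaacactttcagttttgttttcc
Wnt16, chr6:22288077-22288226, plus strand: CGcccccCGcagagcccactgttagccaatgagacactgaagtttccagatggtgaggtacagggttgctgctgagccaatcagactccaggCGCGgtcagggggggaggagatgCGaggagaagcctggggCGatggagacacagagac
Slc19a3, chr1:83038449-83038598, minus strand: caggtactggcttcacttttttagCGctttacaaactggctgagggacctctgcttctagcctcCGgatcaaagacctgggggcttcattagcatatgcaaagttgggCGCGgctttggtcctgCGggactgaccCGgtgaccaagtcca
The printed stretches hold 3 CpGs for Zscan4f, 0 for Zscan4b and 2 for Zfp352. Those of Hoxa13, Wnt9a and Dnmt3b hold 25, 30 and 18. Those of Xaf1, Wnt16 and Slc19a3 hold 2, 6 and 6. The Zscan4f and Zscan4b stretches are identical at 143 of 150 positions, and each of the 4 Zscan4 genes found in the Ubc9-depleted list alone (b, c, d and f) holds 1 TATAAA within its 150 bases. Reads from copies this alike may not be told apart, so the Zscan4 genes are not independent observations.

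Of the Ubc9-depleted regions, 23563 (48.4%, interval 47.9 to 48.8%) had no partner in the H1 triple-knockout list. Of the H1 triple-knockout regions, 30108 (51.9%, 51.5 to 52.3%) had none in the Ubc9-depleted list. The unperturbed lists shared more: 25.0% (24.6 to 25.4%) of Ubc9 control regions and 30.9% (30.6 to 31.3%) of H1 wild-type regions were unshared between them. The deposited score of each region is the peak caller's and was used only as a percentile within its own list. The median percentile was 62.6 for shared and 38.4 for unshared Ubc9-depleted regions, and 69.0 and 35.5 for those of the H1 triple-knockout list. Unshared regions thus ranked low in both lists, and yet strong ones existed. In the highest-scoring 10% of the Ubc9-depleted list 756 regions (15.5%, 14.5 to 16.6%) had no partner, against 486 (8.37%, 7.67 to 9.11%) in that of the H1 triple-knockout list. Between the unperturbed lists the same bins held 14 unshared regions (0.299%) for the Ubc9 control and 43 (0.775%) for H1 wild-type. At the other end, 67.8% and 76.0% of the lowest-scoring 10% were unshared.

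**Figure D1:**
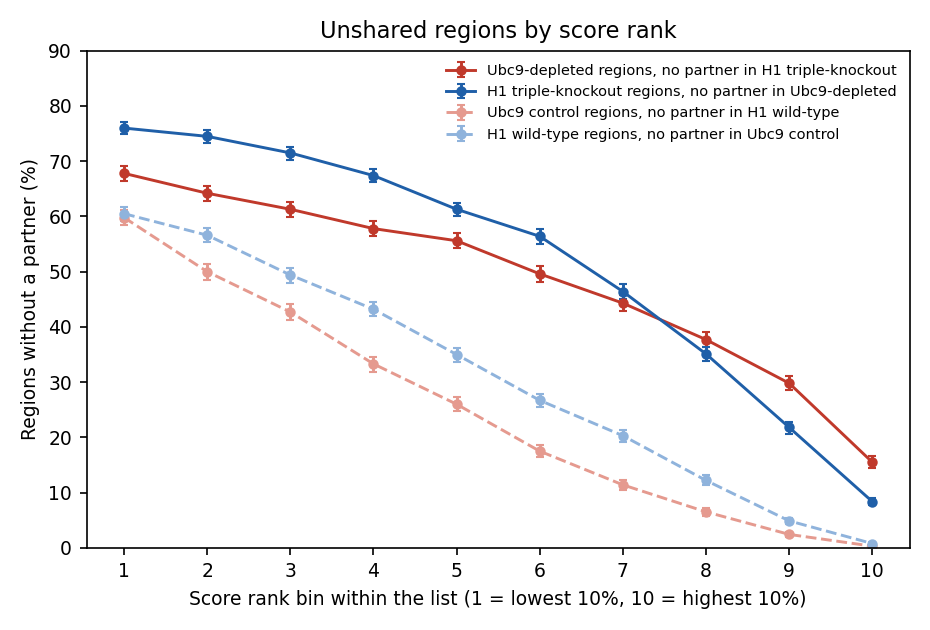
Percent of regions without a partner (y axis) in 10 bins of score rank within each list (x axis, lowest to highest), with exact 95% intervals. Solid lines compare the perturbed lists, which fall from 67.8% to 15.5% and from 76.0% to 8.37%. Dashed lines compare the unperturbed lists, which fall below 1% in the highest bin.

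The control lists showed that the unshared sets differ in kind. Of the 23563 unshared Ubc9-depleted regions, 18622 (79.0%, 78.5 to 79.5%) lay in neither control list, 2393 (10.2%) in the Ubc9 control list only, 911 (3.87%) in the H1 wild-type list only and 1637 (6.95%) in both. Most of what set the Ubc9-depleted list apart was therefore absent from both unperturbed lists. Of the 30108 unshared H1 triple-knockout regions, only 11245 (37.3%, 36.8 to 37.9%) lay in neither control list, while 9790 (32.5%) lay in both, 6192 (20.6%) in the H1 wild-type list only and 2881 (9.57%) in the Ubc9 control list only. The 9790 are regions missing from the Ubc9-depleted list alone. Their median percentile in the H1 triple-knockout list was 52.0, against 23.9 for the 11245 found in neither control list. Among unshared Ubc9-depleted regions the corresponding medians were 38.0 and 38.4, with no such gap. Of shared regions, 81.9% in the Ubc9-depleted and 80.1% in the H1 triple-knockout list lay in both control lists. Regions that both perturbed lists held and neither control list held numbered 1362 (5.41% of the shared regions) as counted in the Ubc9-depleted list and 1565 (5.6%) as counted in the H1 triple-knockout list.

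**Figure D2:**
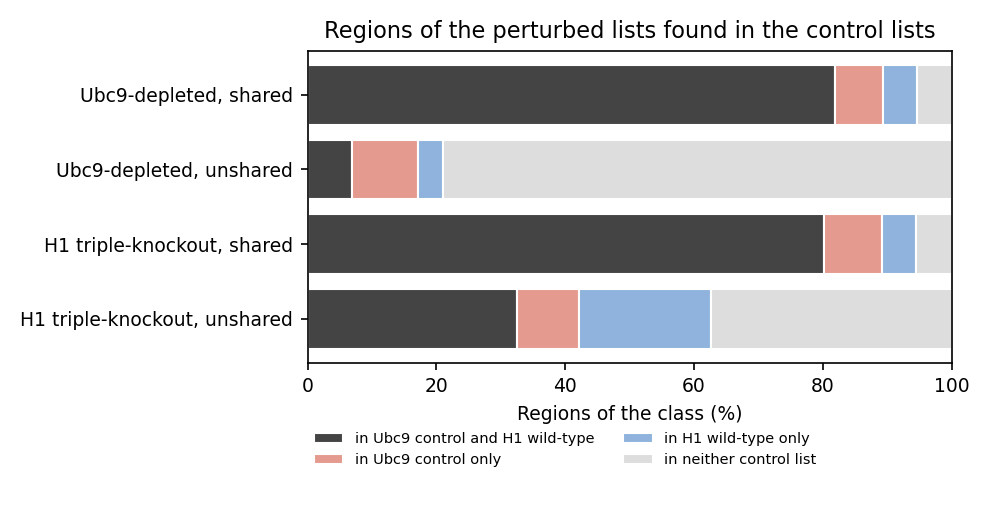
Percent of shared and unshared regions of each perturbed list (bars, x axis) that overlapped a region of both control lists, of 1 of them or of neither. Regions in neither control list make up 79.0% of the unshared Ubc9-depleted and 37.3% of the unshared H1 triple-knockout regions.

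Regions were next placed against 21887 RefSeq protein-coding genes: at a gene end (within 1000 bp of either annotated end), inside a gene, or outside genes. Unshared Ubc9-depleted regions lay mostly outside genes (67.2%, 66.6 to 67.8%), with 24.6% inside genes and 8.12% at gene ends. Unshared H1 triple-knockout regions were divided more evenly between the outside (48.7%, 48.2 to 49.3%) and the inside of genes (44.5%, 44.0 to 45.1%), with 6.76% at gene ends. Unshared regions of the control comparison lay outside genes in 52.4% (Ubc9 control) and 51.6% (H1 wild-type) and inside in 36.5% and 40.3%. The unshared Ubc9-depleted regions thus had the highest share outside genes of the 4 sets, and those found in no other list reached 71.6% (70.9 to 72.2%). Shared regions looked alike in both perturbed lists, with 36.2% and 37.3% at gene ends. The median distance from an unshared region to the nearest start site was 64.2 kb for the Ubc9-depleted and 46.1 kb for the H1 triple-knockout list, against 43.4 and 49.8 kb for the Ubc9 control and H1 wild-type lists. More than 100 kb from any start lay 39.7% (39.1 to 40.3%) of the unshared Ubc9-depleted and 31.4% (30.8 to 31.9%) of the unshared H1 triple-knockout regions, with 30.8% and 34.2% in the control comparison.

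**Figure D3:**
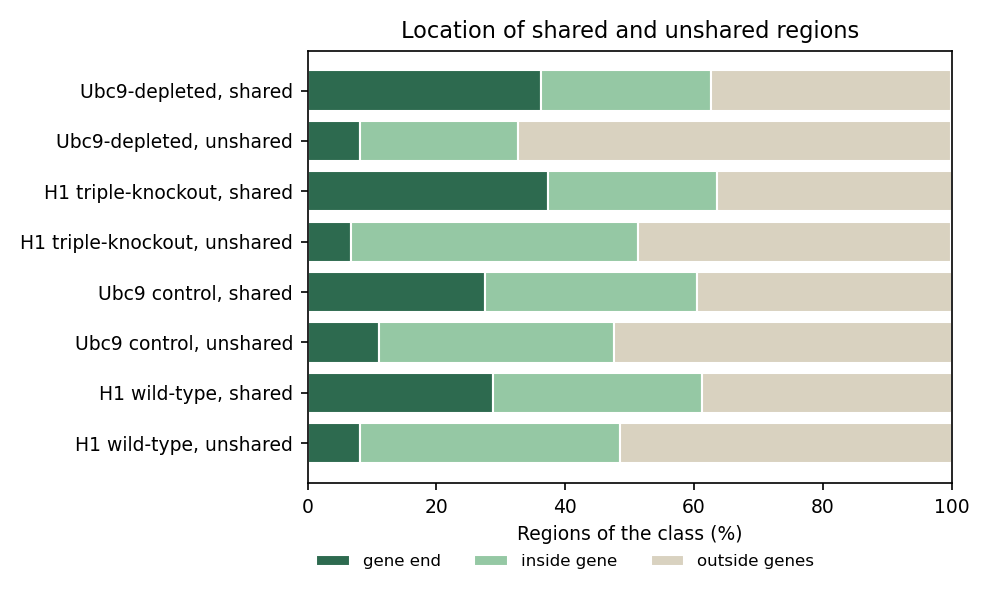
Percent of shared and unshared regions of each list (bars, x axis) at gene ends, inside genes and outside genes. Perturbed lists are compared with each other and unperturbed lists with each other, and unshared Ubc9-depleted regions have the longest outside-gene segment, 67.2%.

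Regions that both perturbed lists held also differed in rank by location. Over 27932 overlapping pairs, the Spearman correlation of the score ranks was 0.495, against 0.657 over 38319 pairs of the control lists. These are descriptions over regions within 1 pair of lists. At gene ends the correlation was 0.591 (control lists 0.75), inside genes 0.427 (0.599) and outside genes 0.377 (0.58). The median percentile of the Ubc9-depleted region minus that of its H1 triple-knockout partner was 2.41 at gene ends, -10.4 inside genes and -9.39 outside genes. The corresponding control differences, Ubc9 control minus H1 wild-type, were 0.557, -2.09 and -1.55. Over pairs with 1 partner each way, the perturbed differences were 0.889, -12.5 and -11.1. The control differences were then 0.274, -2.55 and -1.73. Shared regions inside and outside genes therefore ranked lower in the Ubc9-depleted list. The gene-end difference was small and depended on how pairs were counted. Among single genes, the widest gaps toward the Ubc9-depleted list were at the divergent pair Hnrnpa2b1 and Cbx3 on chromosome 6 (an RNA-binding protein and a heterochromatin protein), whose shared region stood at percentile 98.9 there and 3.32 in the H1 triple-knockout list. The Ubc9 control and H1 wild-type percentiles of that region were 82.2 and 88.9, so the H1 triple-knockout list was the one that differed. Toward the H1 triple-knockout list the widest gap was at Sulf1, an extracellular sulfatase gene on chromosome 1, at percentile 7.85 in Ubc9-depleted and 96.4 in H1 triple-knockout cells. Sulf1 stood at 49.8 in the Ubc9 control and 94.9 in the H1 wild-type list. Car3, a carbonic anhydrase gene on chromosome 3, stood at 10.5 and 96.6 in the perturbed lists and at 89.2 and 88.6 in the controls, so here the Ubc9-depleted list stood apart.

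The linker histone genes deleted in the H1 triple-knockout cells came next. H1f2, H1f3 and H1f4 on chromosome 13 had a gene-end region in all 4 lists, at percentiles of 98.0, 70.6 and 43.2 in the Ubc9-depleted and 86.6, 27.1 and 61.0 in the H1 triple-knockout list. Over the genes themselves, within the H1 pair, H1 triple-knockout regions covered 0, 0 and 20 bp. H1 wild-type regions covered 725, 242 and 38 bp, so at H1f4 the low coverage was present in the wild-type list too. Of the other linker histone genes, H1f5 had a region in every list but the Ubc9-depleted (score 236 in the H1 triple-knockout, 147 in H1 wild-type and 94.4 in the Ubc9 control list). H1f10 and H1f7 had one in both lists of the Ubc9 pair and in neither H1 list. Of 26 genes of the SUMO pathway, 21 had a gene-end region in both perturbed lists and 1 in the Ubc9-depleted list only, Nsmce2, a SUMO ligase of the SMC5/6 complex (score 125). The shares of all genes were 46.4% in both lists, 7.98% in the Ubc9-depleted list only and 5.04% in the H1 triple-knockout list only. Of 12 stem cell marker genes, 9, among them Nanog, Sox2, Klf4 and Zfp42, had a gene-end region in each of the 4 lists, and Pou5f1, Esrrb and Lin28a had one in none. Of 11 fibroblast and feeder markers, 2 had a region in the Ubc9-depleted and 1 in the H1 triple-knockout list, and 1 in each control list. Of 6 trophectoderm markers 1 and 1 had one (3 and 3 in the control lists), of 6 primitive endoderm markers 2 and 2 (3 and 1), and of 5 blood and muscle markers 2 and 2 (1 and 1). Over all genes, 54.4% had a gene-end region in the Ubc9-depleted, 51.4% in the H1 triple-knockout, 53.1% in the Ubc9 control and 51.7% in the H1 wild-type list. The marker counts describe open chromatin, not RNA.

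A gene-end region was found for 54.4% of the 21887 genes in the Ubc9-depleted, 51.4% in the H1 triple-knockout, 53.1% in the Ubc9 control and 51.7% in the H1 wild-type list. Over all 21887 genes, 10149 (46.4%) had a gene-end region in both perturbed lists, 1747 (7.98%) in the Ubc9-depleted list only and 1103 (5.04%) in the H1 triple-knockout list only. Of the 12999 genes with a region in either list, these were 13.4% and 8.49%. Between the control lists, 1157 genes (5.29%) were in the Ubc9 control list only and 866 (3.96%) in the H1 wild-type list only. Genes found in the Ubc9-depleted list and no other numbered 687 (3.14%), and genes found in the H1 triple-knockout list and no other 291 (1.33%). Genes missing from a single list numbered 441 (2.01%) for the Ubc9-depleted and 469 (2.14%) for the H1 triple-knockout list. A further 441 genes had a region in both lists of the Ubc9 pair and in neither H1 list, and 258 (1.18%) the reverse, so these genes differed in the same way between the unperturbed lists. Of the 1747 genes, 112 owed their place to a shared region that crossed the edge of the gene-end window in 1 list, as did 7 of the 1103.

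With window-edge cases left out, among them Aktip (score 1085) and Gm49894 (812), the highest-ranking genes in the Ubc9-depleted list only were the predicted gene Gm46913 on chromosome 5 (score 771, percentile 98.6, in no other list) and the divergent pair Gnl3 and Pbrm1 on chromosome 14 (score 712), a nucleolar GTPase gene and a subunit gene of the SWI/SNF remodeler. The Gnl3 and Pbrm1 region was also in the Ubc9 control list (301) and in neither H1 list. Neto2 on chromosome 8, a glutamate receptor auxiliary subunit gene, scored 592. It had a gene-end region in both controls (216 and 225) but not in the H1 triple-knockout list, whose regions covered 248 bp elsewhere in the gene. Psg23, Il1f9 and Gm52259 had a gene-end region in the Ubc9-depleted list and no other, with scores of 512, 478 and 570. Away from the gene ends, H1 triple-knockout regions covered 157 bp of Psg23 and Ubc9 control regions 165 bp of Il1f9. In the H1 triple-knockout list only, the apelin receptor gene Aplnr on chromosome 2 ranked highest (score 977, percentile 99.6) and was also in the Ubc9 control (361) and H1 wild-type lists (556). Ankrd66 (667), the thiamine transporter gene Slc19a3 (660), Bcl3 (539), an NF-kappaB cofactor gene, and Gstm2 (512) likewise had a gene-end region in every list but the Ubc9-depleted. Elsewhere in these genes, Ubc9-depleted regions covered 1557 bp of Bcl3, 428 bp of Slc19a3 and 0 bp of Ankrd66 and Gstm2. Igsf10 on chromosome 3 was in the H1 triple-knockout list and no other (score 471, percentile 94.6). Of the 8 highest-ranking genes in this direction, only Igsf10 had a region in neither control list.

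Genes of the 2-cell embryo were the list with the highest share in the Ubc9-depleted list only. Of 46 matched members, 14 (30.4%, against 7.98% of all genes) had a gene-end region there only, 3 (6.52%, against 5.04%) in the H1 triple-knockout list only, 6 in both and 23 in neither. Of the 14, 12 were in none of the other 3 lists. The predicted genes Gm8300 and Gm2016 on chromosome 12 led with scores of 354 and 319. Next were Zscan4f (306), Zscan4c (298), Zscan4d (279) and Zscan4b (185) on chromosome 7, zinc-finger genes that mark the 2-cell-like state of stem cells. Gm8300 was also in the Ubc9 control list, at a score of 91.4. Zfp352 on chromosome 4 scored 131, and the ubiquitin peptidase genes Usp17lb and Usp17lc 86.6 and 76.0. Among members outside the repeated clusters, Tmem92 scored 87.2 in the Ubc9-depleted list alone, and Zfp750 scored 144 there, 137 in the Ubc9 control and 156 in the H1 wild-type list. The 3 members in the H1 triple-knockout list only were Rnf168, Zfp987 and Slc34a2, all with scores between 80.2 and 84.7 and in no other list. Between the control lists, 3 members were in the Ubc9 control list only and 1 in the H1 wild-type list only. Many members are near-identical copies, so the 14 are fewer independent sites than genes.

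The Hox genes, which pattern the body axis and are held by Polycomb complexes in stem cells, differed in 1 direction only. Of 39, 9 (23.1%, against 7.98% of all genes) had a gene-end region in the Ubc9-depleted list only, none (against 5.04%) in the H1 triple-knockout list only, 5 in both and 25 in neither. In the control comparison, 1 and 3 were in 1 list only. Of the 9, 7 also had a region in a control list, and Hoxa13, Hoxd13 and Hoxb9 were among those in every list but the H1 triple-knockout. Hoxa13 scored 141 in the Ubc9-depleted, 121 in the Ubc9 control and 144 in the H1 wild-type list. Hoxd13 scored 201, 60.1 and 72.9 in the same order. Hoxa4, and the neighbours Hoxa5 and Hoxa6 with a common region, were in the Ubc9-depleted (225 and 122) and H1 wild-type lists (134 and 128). Hoxb5 (61.2) was in the Ubc9-depleted list and no other, as was Hoxc6 (112), a window-edge case. Of the 9, 5 lie on chromosome 6 in 1 cluster, and without chromosomes 1, 3, 6, 8, 19, X and Y the count became 4.

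Few interferon-response genes differed. Of 38, none (against 7.98% of all genes) had a gene-end region in the Ubc9-depleted list only and 4 (10.5%, against 5.04%) in the H1 triple-knockout list only, with 15 in both. The control comparison had the other order, with 3 in the Ubc9 control list only and 1 in the H1 wild-type list only. Xaf1 on chromosome 11, a gene for a partner of an apoptosis inhibitor, scored 349 in the H1 triple-knockout, 273 in the H1 wild-type and 123 in the Ubc9 control list. Ifit2 on chromosome 19, whose product binds viral RNA, scored 175, 99.3 and 88.2 in the same order. Trim30a on chromosome 7 scored 125, 189 and 125, and Gbp2 on chromosome 3, a GTPase gene, 125 and 119 in the H1 pair only. Xaf1, Ifit2 and Trim30a were thus missing from the Ubc9-depleted list alone. An interferon-stimulated element in its core form was found before 1 Trim30a start site, on the reverse strand. Stretches of the same length before another Trim30a start site, and before those of Xaf1 and Ifit2, held no match. Among the stretches examined, the core form was thus found before 1 start site only, and no Gbp2 stretch was among them. The Trim30a stretch with the match is printed here, with the element in capitals.
Trim30a, chr7:104465194-104465343, minus strand: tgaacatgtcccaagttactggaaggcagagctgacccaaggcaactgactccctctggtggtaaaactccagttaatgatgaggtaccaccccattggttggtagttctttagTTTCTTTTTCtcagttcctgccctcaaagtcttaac
Without the same 7 chromosomes the count became 2.

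Wnt signals and their receptors and effectors differed in both directions. Of 50 genes, 10 were in the Ubc9-depleted list only (7.98% of all genes were), 5 in the H1 triple-knockout list only (5.04% of all genes) and 24 in both. In the control comparison, 4 and 4 were in 1 list only. Among ligands, Wnt9a (score 233), Wnt4 (135), Wnt7a (71.0), Wnt5a (68.4) and Wnt1 (62.0) were in the Ubc9-depleted list and none of the other 3. Wnt2 (487) was in both H1 lists and neither Ubc9 list, and Wnt16 (255) in every list but the Ubc9-depleted. Among receptors, Fzd9 scored 307 in the Ubc9-depleted list and was also in the Ubc9 control list. The co-receptor gene Lrp5 scored 134 in the Ubc9-depleted list and was in no other. Lgr5 scored 93.1 in the H1 triple-knockout and 182 in the H1 wild-type list. As Lgr5 was also in the Ubc9 control list, it was missing from the Ubc9-depleted list alone. The inhibitor genes Dkk1 and Dkk3 both scored 109 in the H1 triple-knockout list, and the inhibitor gene Sfrp5 118 in the Ubc9-depleted list. Dkk1 was also in both control lists, while Dkk3 and Sfrp5 were in no other list. Of the effectors, Ctnnb1, the gene of beta-catenin, scored 486 in the Ubc9-depleted, 265 in the Ubc9 control and 134 in the H1 wild-type list, and Tcf7 189 in the Ubc9-depleted and 54.3 in the H1 wild-type list. The Ctnnb1 region was thus missing from the H1 triple-knockout list alone.

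Lineage and identity genes were divided. The shares of all genes, for each list below, were 7.98% in the Ubc9-depleted list only, 5.04% in the H1 triple-knockout list only and 46.4% in both. Of 39 pluripotency genes, 25 had a region in both perturbed lists, 2 in the Ubc9-depleted list only (Trim71, 90.5, and Tcl1, 77.2) and 4 in the H1 triple-knockout list only, with 3 and 2 in the control comparison. Tdgf1, the Nodal co-receptor gene, scored 240 in the H1 triple-knockout, 232 in the H1 wild-type and 110 in the Ubc9 control list, and the chromatin factor gene Utf1 167, 199 and 127. Tet1, the gene of a 5-methylcytosine oxidase, was in the H1 triple-knockout list alone (88.2), and Dppa4 in both H1 lists (74.2 and 119). Of 28 neural genes, 5 (17.9%) were in the H1 triple-knockout list only and 1 (3.57%), Tubb3, in the Ubc9-depleted list only. The control comparison had the same tilt, with none in the Ubc9 control list only and 3 in the H1 wild-type list only. With equal numbers of top-scoring regions, 2 neural genes were in each perturbed list only. With a score of at least 100, 2 were in the H1 triple-knockout list only and 1 in the Ubc9-depleted list only. The glial regulator Olig2 led the 5, with a score of 301 and 188 in H1 wild-type, followed by Dlx5 (104), En1 (63.3), Pax3 (58.3) and Gad1 (51.1). Pax3 was also in the H1 wild-type list, and Dlx5, En1 and Gad1 were in no other list. Of 25 mesoderm and endoderm genes, 6 were in the Ubc9-depleted list only (Mesp2, 131, and Hand2, 93.6, ranked highest) and 3 in the H1 triple-knockout list only (Gsc, 128, Lhx1, 99.9, and Tbx6, 58.0), with 2 and 1 in the control comparison. With a score of at least 100 the mesoderm and endoderm counts became 1 and 1, and with equal numbers of top-scoring regions 8 and 2. Of 25 primitive endoderm genes the counts were 5 and 4 (control comparison 4 and 1), and of 24 trophectoderm genes 3 and 4 (2 and 1). The neighbours Col4a1 and Col4a2, basement membrane collagen genes, shared a region of score 142 in the Ubc9-depleted list alone, and the keratin gene Krt8 scored 314 in the H1 triple-knockout and 292 in the H1 wild-type list. Of 30 germline genes, 5 and 3 were in 1 list only, with 5 and 2 in the control comparison. The meiosis genes Meioc (209) and Syce1 (161) and Taf7l (229), a testis form of a general transcription factor subunit, were in the Ubc9-depleted list and no other.

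**Figure D4:**
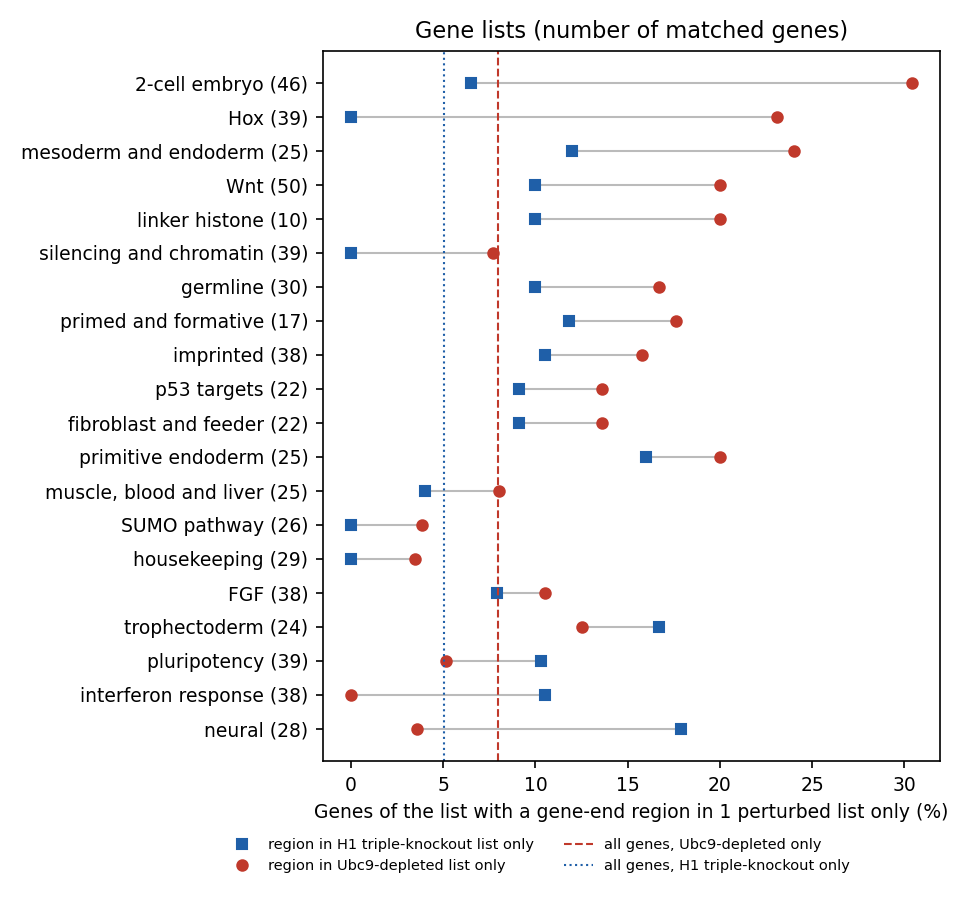
Percent of the genes of each list with a gene-end region in the Ubc9-depleted list only (circles) or the H1 triple-knockout list only (squares). Vertical lines give the same over all genes, 7.98% and 5.04%. Genes of the 2-cell embryo (30.4%), mesoderm and endoderm genes (24.0%) and Hox genes (23.1%) lie farthest right among the circles. Neural genes (17.9%) lie farthest right among the squares. The mesoderm and endoderm counts became 1 and 1 with a score of at least 100, and the neural counts 2 and 2 with equal numbers of top-scoring regions.

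In the other lists, silencing and housekeeping genes mostly had regions in both perturbed lists. The shares of all genes were again 7.98% and 5.04%, and 46.4% of all genes had a region in both lists. Of 39 genes of silencing and chromatin factors, 31 had a region in both perturbed lists, 3 (7.69%, near the share of all genes) in the Ubc9-depleted list only and none in the H1 triple-knockout list only, with 1 and 1 in the control comparison. The 3 were the Polycomb ligase gene Ring1 (159, and 83.3 in H1 wild-type), the DNA methyltransferase gene Dnmt3b (134, in no other list) and the histone methyltransferase gene Ehmt2 (60.8, in no other list). Of 38 imprinted genes, 6 (15.8%) were in the Ubc9-depleted list only, led by Igf2r (371, with 177 in the Ubc9 control and 96.9 in the H1 wild-type list), and 4 (10.5%) in the H1 triple-knockout list only, led by Commd1 (157, in no other list), with 5 and 1 in the control comparison. Of 22 targets of p53, 3 (13.6%) and 2 (9.09%) were in 1 list only, with 3 and 1 in the control comparison. Bax, the gene of an apoptosis effector, scored 275 in the Ubc9-depleted and 58.7 in the Ubc9 control list. Bbc3 scored 188 in the Ubc9-depleted list and was also in both control lists. On the other side were Fas (121, also in the H1 wild-type list) and Cdkn1a (88.2, also in the Ubc9 control list). Of 38 FGF genes, 4 and 3 were in 1 list only, led by Fgfr3 (108) and Fgf17 (188), with 4 and 1 in the control comparison. Fgfr3 was in no other list, and Fgf17 was also in both control lists. Of 29 housekeeping genes, 24 were in both lists, and none was in the H1 triple-knockout list only. Of 25 muscle, blood and liver genes, 2 and 1 were in 1 list only, with the erythroid factor gene Klf1 (311) in the Ubc9-depleted list alone.

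Base composition set the promoters apart. Over 21263 RefSeq promoter windows of 300 bases (250 before to 50 after a start), 1954 met a region of the Ubc9-depleted list only and 656 a region of the H1 triple-knockout list only. The median GC content was 66.0% (quartiles 58.3 and 73.0%) for the former and 54.7% (49.7 and 59.7%) for the latter, against 62.3% for the 8641 promoters in both lists and 56.3% for all. The median number of CpGs was 26 and 10. Of the 2690 promoters with at least 70% GC, 717 (26.7%, 25.0 to 28.4%) were in the Ubc9-depleted list only and 20 (0.743%, 0.455 to 1.15%) in the H1 triple-knockout list only. The control lists differed the same way and by less: 389 (14.5%) were in the Ubc9 control list only and 75 (2.79%) in the H1 wild-type list only, with median GC contents of 64.0% and 58.0% over all such promoters. Within promoters that both control lists held, the medians stayed at 64.7% (513 promoters) and 54.7% (289). The promoters of Wnt9a (83.3% GC), Hoxa13 (81.0%) and Dnmt3b (76.0%) printed above belong to the GC-rich side, whereas those of Zscan4f (46.3%) and Zfp352 (47.0%) do not. With the midpoint of a region, in place of any overlap, required to lie in the window, the counts turned around to 1318 and 3150 promoters and the medians to 66.5% and 61.3%. The direction of the promoter counts thus depends on how a region is placed, while the order of the GC medians did not change. The part of base composition, library preparation or depth in this difference was not tested.

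**Figure D5:**
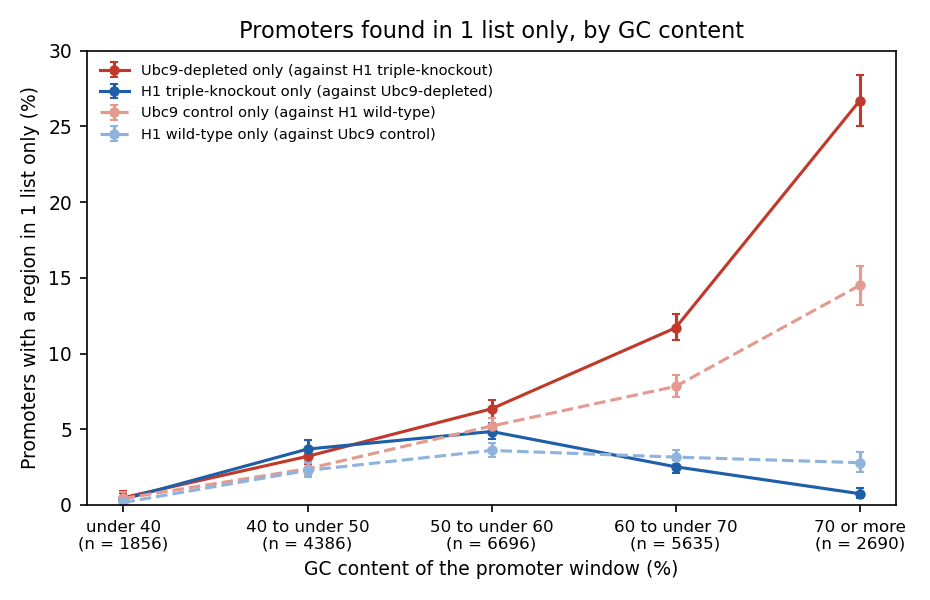
Percent of promoter windows with a region in 1 list only (y axis), by GC content of the window (x axis), with exact 95% intervals. The Ubc9-depleted line reaches 26.7% in the bin of at least 70% GC, where the H1 triple-knockout line is at 0.743%, and the dashed lines of the unperturbed lists lie between them.

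Motif matches in these promoters differed between the lists. GGGCGG, the core of the GC box bound by Sp factors, was found on either strand in 71.1% (69.0 to 73.1%) of the Ubc9-depleted-only promoters, 39.9% (36.2 to 43.8%) of the H1 triple-knockout-only promoters and 46.2% of all 21263. It was found in 72.2% of promoters in both lists, and in 68.5% and 54.6% in the control comparison. TATAAA was found in 6.7%, 10.5% and 12.6% (control comparison 6.19% and 8.71%). The core interferon-stimulated element printed for Trim30a was found on either strand in 1.94% (1.38 to 2.66%), 5.03% (3.49 to 6.99%) and 3.35% (control comparison 1.63% and 3.02%). CCGGAAG, a core bound by ETS factors, was found in 12.9%, 9.3% and 11.6%, in 21.5% of promoters in both lists, and in 12.1% and 12.4% in the control comparison. These promoter classes also differ in GC content, and the motif shares were not matched for it. The part of base composition in the motif differences was not tested. A match describes these letters only and is no evidence of binding.

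Unshared regions were not spread evenly over the chromosomes. On autosomes 42.8 to 52.7% of Ubc9-depleted regions (median 47.6%) and 43.9 to 58.1% of H1 triple-knockout regions (median 52.4%) had no partner. The highest H1 triple-knockout share was on chromosome 3 (2636 of 4535 regions, 58.1%), where the Ubc9-depleted share was the lowest (42.8%). On the X chromosome 60.2% (57.9 to 62.4%) of the Ubc9-depleted and 49.5% (47.1 to 51.9%) of the H1 triple-knockout regions were unshared, with 29.7% and 26.0% in the control comparison. On the Y chromosome 272 of 324 Ubc9-depleted regions (84.0%) and 18 of 74 H1 triple-knockout regions (24.3%) were unshared, with 82 of 150 and 45 of 123 between the control lists. Leaving out chromosomes 1, 3, 6, 8, 19, X and Y, chosen after their values were seen, gave unshared shares of 47.8% and 51.2%.

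Blocks of difference also appeared within chromosomes. Of 2650 windows of 1 Mb with a region, 1047 held more unshared Ubc9-depleted than H1 triple-knockout regions and 1479 fewer. The H1 triple-knockout list is also the longer one (58039 against 48730 regions), so these 2 counts do not compare the lists. The largest blocks toward the H1 triple-knockout list lay on chromosome 1. Between 119 and 120 Mb, around Gli2 and Inhbb, 72 of 87 H1 triple-knockout and 4 of 19 Ubc9-depleted regions were unshared. Between 120 and 121 Mb, which holds En1, the numbers were 75 of 83 and 7 of 15. In the same windows 15 of 44 and 6 of 25 H1 wild-type regions were unshared against the Ubc9 control list. Several of the largest blocks toward the Ubc9-depleted list lay in arrays of repeated genes, but not all. On chromosome 12 between 19 and 20 Mb, 33 of 48 Ubc9-depleted and 3 of 18 H1 triple-knockout regions were unshared. On chromosome 7 the window from 11 to 12 Mb with Zscan4c, Zscan4d and Zscan4f had 32 of 38 and 5 of 11, and the window from 15 to 16 Mb with the Obox homeobox genes and Crxos 31 of 42 and 5 of 18. On chromosome 10 between 104 and 105 Mb, with Gm6763 and Gm4340, 24 of 26 and 1 of 3 were unshared. The window from 61 to 62 Mb of chromosome 4 with the major urinary protein genes had 25 of 36 and 4 of 16. The window from 116 to 117 Mb of chromosome 11, with Itgb4, Galk1 and Srsf2, had 35 of 57 and 9 of 32, a surplus equal to that of the Obox window. The window from 69 to 70 Mb of the same chromosome had 28 of 65 and 7 of 50. That from 85 to 86 Mb of chromosome 6, which holds the Nat8 gene array beside single genes such as Emx1, had 26 of 37 and 5 of 17. Reads in repeats may belong to more than 1 copy, and their assignment to copies is not given in the sources at hand.

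Surpluses within single genes were counted over the gene and its flanks, so long genes can hold more. Such counts also follow the length of a list, so their size was not compared between the directions. Cntnap2 on chromosome 6, the gene of a neuronal adhesion protein, had 33 unshared H1 triple-knockout regions within its 2240 kb and 10 kb on each side, and 3 unshared Ubc9-depleted ones. In the control comparison it had 15 unshared H1 wild-type and 3 unshared Ubc9 control regions. Plcb4 (a phospholipase C gene, 26 and 0), Schip1 (28 and 1) and Pde4d (a cAMP phosphodiesterase gene, 32 and 8) showed the same direction. Their unshared H1 wild-type and Ubc9 control regions numbered 10 and 4, 5 and 4, and 17 and 8. Toward the Ubc9-depleted list, Col23a1, a collagen gene on chromosome 11, had 8 unshared Ubc9-depleted and 0 unshared H1 triple-knockout regions. In the control comparison it had 0 in either list. Csmd1 (13 and 5), Tmcc3 (8 and 1) and Ncald (8 and 1) had the same direction. These 3 genes tilted the same way in the control comparison, with 8 and 2, 3 and 0, and 3 and 0 unshared regions.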

How the data were processed

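The authors deposited 1 list of accessible regions per group, each made, per the labels, from both replicates. The submitters' processing notes name CASAVA 1.8.2, Bowtie2, Picard and MACS 1.4.2-1 and the build mm10. Tool settings, the way replicates were combined and any shift of read positions are not given in the sources at hand. Each deposited region has a score, read from its lowest value (50) as minus 10 times log10 of p, and a higher score means a stronger call. A deeper library yields more and higher calls, and the depth is unknown.

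The members and gene lists were chosen with earlier results of these data known. Regions were shared when overlapping by at least 1 bp. Scores were turned into percentiles within a list. Gene ends were 1000 bp on each side of both ends of 21887 RefSeq protein-coding genes (GRCm38.p6, with mm10 coordinates). Of the members of 20 gene lists, 610 matched the gene table by symbol and 9 did not. Regions on unplaced scaffolds were left out of locations. Shares have exact 95% binomial intervals, and no test was made. No column of another study's sample was present.

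Named are genes targeted in the study, at most 4 members of each gene list per direction, by percentile, the 8 highest per direction over all genes with window-edge cases left out, the 6 highest per pattern found in, or missing from, exactly 1 of the 4 lists, and the 5 per direction with the largest difference in percentile or in unshared regions. Other members of a list, and the genes of windows, were named after their values were seen. Some genes that the rule picks are not reported here. Promoter sequences are RefSeq's. The promoter, motif and distance measures and the 1 Mb windows were added after the data were seen, as was the list of chromosomes left out. The overlap step was checked on simulated regions. Python 3.11.15, numpy 2.4.6, pandas 2.3.3 and scipy 1.17.1 were used. Alternatives were the midpoint of a region, a distance of 500 bp, a score of at least 100, equal numbers of top regions, no regions under 100 bp, other gene-end windows, 1 partner each way and chromosomes left out.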

Additional observations from a re-analysis of the deposited data

How the results depend on the processing

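No paired analysis was possible because each list pools both replicates, and for the same reason no replicate could be left out. The unshared share of the Ubc9-depleted list was 56.4% by midpoint, 40.4% with a minimum score of 100 for the regions counted, 46.4% with that minimum in both lists, 51.7% with equal numbers of top regions and 47.8% without the 7 chromosomes. That of the H1 triple-knockout list was 52.3%, 42.1%, 53.6%, 47.3% and 51.2% in the same order, and 50.3% with regions within 500 bp counted as shared. Which list had the higher unshared share therefore depends on the setting, as it turned around by midpoint and with equal numbers. Genes in the H1 triple-knockout list only became 730 with the start site only and 672 with a score of at least 100, and the surplus of Ubc9-depleted-only over H1 triple-knockout-only genes, 644, became 1201 with equal numbers and 427 by midpoint. The Hox count became 4 and the interferon count 2 without the 7 chromosomes. At gene ends lay 7.48% and 6.22% of unshared Ubc9-depleted and H1 triple-knockout regions by midpoint, and with a score of at least 100 the Ubc9-depleted shares at gene ends, inside and outside genes were 9.05%, 21.8% and 69.1% and the H1 triple-knockout share inside genes 45.2%. In neither control list lay 81.2% and 38.2% by midpoint, and in both 5.45% and 31.9%. With a score of at least 100 those of the H1 triple-knockout list became 26.1% and 43.6%. With 1 partner each way the rank correlation was 0.548 and the median percentile difference -4.41, against -2.32. Median GC contents were 64.3% and 54.3% within 1000 bp of the start, 65.3% and 54.3% with equal numbers, 66.5% and 61.3% by midpoint, and 67.3% for the Ubc9-depleted list with a score of at least 100. The causes of these changes were not tested. Of the counts of single gene lists under an alternative, 133 stayed close to the reported count and 52 moved, mostly counts of under 10 genes. For 8 gene lists the order of the counts turned around under at least 1 alternative: pluripotency (2 and 4 to 4 and 3 with equal numbers), primitive endoderm (5 and 4 to 1 and 4 without the 7 chromosomes), imprinted (6 and 4 to 5 and 6 by midpoint), and likewise trophectoderm, FGF, p53, fibroblast and feeder, and muscle, blood and liver genes. The unknown depth limits every absence: a region missing from a list may lie under its score minimum.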

Other observations

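Large gene families, looked at after the values were seen, gave shares on both sides of those of all genes (7.98% in the Ubc9-depleted list only, 5.04% in the H1 triple-knockout list only). Among 1110 olfactory receptor genes (Olfr), 11 and 17 had a gene-end region in 1 perturbed list only, and among 355 vomeronasal receptor genes (Vmn) 5 and 2. Ubiquitin peptidase genes (Usp) gave 11 and 0 of 56, with 7 and 1 between the control lists, and zinc-finger genes named Zfp gave 37 and 22 of 397.

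On unplaced scaffolds the Ubc9-depleted list held 119 regions, 80 of them unshared, and the H1 triple-knockout list 76, with 34 unshared.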
